A study of Livoneca redmanii with 3 samples.

Results

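Vitellogenin is the precursor of egg yolk protein, and here it was 1 assembled gene of 7 contigs. The members were all transcripts named Vg or described as vitellogenin, with every contig of the gene that carried the name Vg, out of 31922 distinct contigs in 26084 assembled genes. The name Vg stood on 6 contigs and a vitellogenin description on all 7, and no vitellogenin-described contig lay outside that gene. RNA was sequenced from whole Livoneca redmanii, a cymothoid isopod parasite collected from tilapia, with 1 library for each of 3 conditions. The low-salinity animals were brought down gradually to 8 PSU, with no temperature stated for them. The low-temperature animals were cooled to 10 °C, with no salinity stated, and controls stayed at 35 PSU and 26 °C. The labels state no sex, age, brood stage or number of animals. With 1 library per condition no difference has a replicate check, and every interval below covers counting error only.

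In egg-laying animals vitellogenin is a large lipid-carrying protein that is secreted into the blood or hemolymph, taken up by growing oocytes through a receptor of the low-density lipoprotein receptor family, and cleaved into yolk. In crustaceans the hepatopancreas, the fat body and the ovary are known sites of its synthesis, and it is widely used as a marker of maturing females. Cymothoid isopods are protandrous hermaphrodites, in which the same animal is first male and then female.

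Vitellogenin counts were found almost entirely in the low-temperature library. The gene, TRINITY_DN9_c0_g1, summed to 2 counts in low salinity (exact Poisson 95% interval 0.242 to 7.22), 13103 in low temperature (12880 to 13329) and 0 in control (0 to 3.69). The low-temperature value was 0.471% of all counts of that library (exact binomial 95% interval 0.463% to 0.479%). The low-salinity value was 0.000139% of its library (1.69e-05% to 0.000504%), and the control share was 0%, with an exact interval up to 0.000172% and a floor of 3 counts, used below, at 0.00014%. Low temperature was high and the other 2 libraries were at or near 0. The libraries summed to 1434390 counts in low salinity, 2782324 in low temperature and 2142836 in control, so depth differed by far less than vitellogenin. In whole-animal RNA, fewer cells of a type and less RNA per cell cannot be told apart.

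The 7 contigs ranged from 200 to 4338 counts in low temperature. The most abundant by counts was TRINITY_DN9_c0_g1_i1, described as a vitellogenin-A1 precursor and as vitellogenin, with 1 count in low salinity, 4338 in low temperature and 0 in control. TRINITY_DN9_c0_g1_i8, described as vitellogenin with no gene name, had 1, 4156 and 0 counts in low salinity, low temperature and control. These 2 contigs held 64.8% of the gene's low-temperature counts and both of its low-salinity counts. TRINITY_DN9_c0_g1_i7, a vitellogenin-A1 precursor, had 2069 counts in low temperature and 0 in both low salinity and control. The remaining 4 contigs, i9, i10, i11 and i5, had 1169, 839, 332 and 200 counts in low temperature and were likewise at 0 in low salinity and control. Contigs of 1 gene share sequence and the counting tool divides reads among them by estimation, so the gene sum rests less on that division than any contig does. The deposited tables give no contig lengths, so the order by counts is not an order of molecules.

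**Figure D1:**
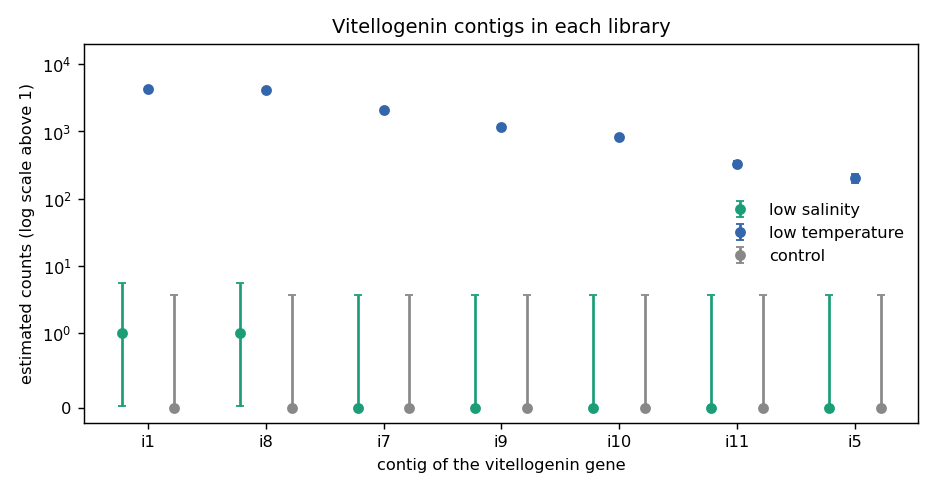
Estimated counts (vertical axis, logarithmic above 1 count) of the 7 vitellogenin contigs in low salinity, low temperature and control, with exact Poisson 95% intervals as bars. The low-temperature points lie between 200 and 4338 counts, and all low-salinity and control points lie at 0 or 1.

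The contigs also differed in the proteins they matched best, which the choice of members did not use. In the deposited annotation, i1 matched a vitellogenin of the mosquito Anopheles gambiae in 2 of its 3 listings and one of the Atlantic cod Gadus morhua in the other. Contig i8 matched the cod protein alone and i7 the mosquito protein alone. The 4 less abundant contigs matched both the mosquito protein and a protein of the water flea Daphnia pulex described by its nutrient reservoir activity. The cod-matching contigs i1 and i8 summed to 8494 counts in low temperature, and the Daphnia-matching contigs to 2540, or 19.4% of the gene.

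Because the animals live on fish, markers of fish blood and liver were read beside the cod matches. No contig was described as a globin, albumin, transferrin, apolipoprotein A or complement C3. The list of fish blood and liver markers had 45 contigs, with 46 counts in low salinity, 2300 in low temperature and 157 in control. Of these, 41 were immunoglobulin-domain contigs, a fold that arthropod proteins carry too, and the 4 fibrinogen contigs summed to 0, 122 and 2 counts. Contigs whose best match was a protein of the Nile tilapia, a relative of the host, numbered 14 and summed to 137 counts in low salinity, 650 in low temperature and 226 in control, and none was in the vitellogenin gene. The other 10 contigs with a cod match summed to 0, 1084 and 91. The 41 contigs with a zebrafish match had 5441 counts in low salinity, 3118 in low temperature and 12677 in control, highest in control, and none was in the vitellogenin gene. The part of host RNA in the vitellogenin counts was not tested.

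Low temperature against control addresses which transcripts differ between animals at 10 °C and at 26 °C. Vitellogenin in low temperature was 12986-fold above a floor of 3 counts in control, a bound on the log2 scale of 13.66. It was computed after TMM scaling, which adjusts library totals for differences in composition. The bound holds for that floor and scaling only. The floor lies below the exact upper limit of 3.69 counts in control, and other library scalings gave log2 values from 11.20 to 14.62. Most other cellular transcripts were also near 0 outside low temperature, with 18 counts in low salinity, 18765 in low temperature and 14 in control over 150 ribosomal protein contigs, so this bound compares libraries of very different makeup. With 1 library per condition, a difference between libraries and one between conditions cannot be told apart. On this scale the gene had 1.08 CPM in low salinity, 10492 CPM in low temperature and 0 in control, with a control floor of 0.808 CPM. All 7 contigs were at least 2-fold higher, and 0 lower, against 49.6% higher and 43.0% lower among the 8563 tested transcripts, those averaging at least 10 counts over the libraries. Since each contig had at most 1 count in any other library, it passed this filter through low temperature only, and its direction was fixed by that. Of 5503 assembled genes tested, 53.3% were at least 2-fold higher and 39.5% at least 2-fold lower.

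Low salinity against control addresses the effect of dilution from 35 PSU to 8 PSU. Low salinity had 2 counts, against 0 in control, so both values lay under the floor of 3 counts, and no fold can be given. A difference in vitellogenin between these libraries was not detectable at this depth. Past the 2-fold rule lay 5.62% of tested transcripts on the higher side and 13.3% on the lower side in low salinity.

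For low salinity against low temperature, both libraries had counts. Vitellogenin was 9675-fold lower in low salinity than in low temperature (exact conditional binomial 95% interval 2678 to 79895). The log2 ratio was -13.24 (-16.29 to -11.39), with 2 counts against 13103. Ribosomal protein counts were 18 in low salinity and 18765 in low temperature, so this ratio too compares libraries of very different makeup. Per ribosomal protein count, a ratio chosen after the data were seen, vitellogenin was 0.111 in low salinity (0.0125 to 0.464) and 0.698 in low temperature. Per count of hemocyanin and larval serum protein, chosen likewise, it was 0.2 in low salinity (0.0213 to 0.939) and 0.255 in low temperature. All 7 contigs were at least 2-fold lower in low salinity, against 49.9% of tested transcripts, and here too the filter fixed their direction.

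**Figure D2:**
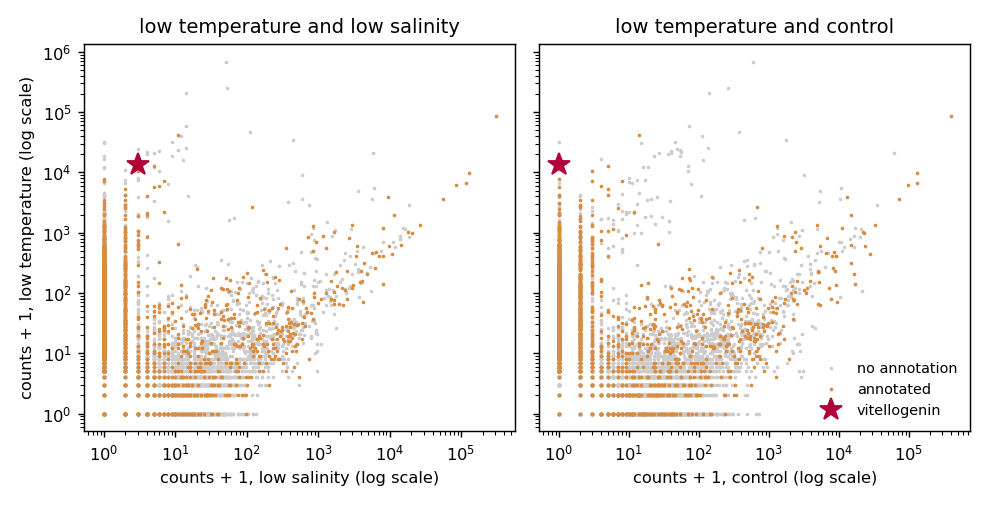
Counts plus 1 of every assembled gene in low temperature (vertical) against low salinity (left) or control (right), on logarithmic axes, with annotated genes in orange and vitellogenin as a star. Vitellogenin lies at the left edge with many other annotated genes, with 2 counts in low salinity, 13103 in low temperature and 0 in control.

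Other annotated genes had the same pattern. Of 76 annotated assembled genes with at least 1000 counts in low temperature, 26 (34.2%), vitellogenin among them, had at most 2 counts in low salinity and 0 in control. At a minimum of 100 counts it was 566 of 792 (71.5%). Among unannotated genes it was 12 of 97 (12.4%) at 1000 counts and 175 of 428 (40.9%) at 100. Vitellogenin had 1.53 low-salinity counts per 10000 low-temperature counts, against a median of 0.763 over the 56 genes with a gene name and that many counts. In control vitellogenin was 1 of 26 of these genes at 0, and their median was 2.86 per 10000. The highest ratio in both was that of TRINITY_DN1_c1_g1, named cox3 after a mitochondrially encoded respiratory subunit, with 438.8 in low salinity and 2530 in control. Of the 3472 annotated genes at 0 in control, vitellogenin had the most low-temperature counts, and the next was the larval serum protein gene TRINITY_DN34_c0_g1 with 7720.

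Genes were ranked by how near their TMM-scaled levels lay to those of vitellogenin over the 3 libraries, as the Euclidean distance on the scale of log2(CPM + 0.5). The nearest of 1623 named genes was the muscle myosin heavy chain gene TRINITY_DN17_c0_g1 (unc-54, Mhc1), with 2 counts in low salinity, 10745 in low temperature and 2 in control, at a distance of 1.09. Next came the trypsin-like serine peptidase gene TRINITY_DN146_c0_g1, with 4, 5738 and 0 counts in low salinity, low temperature and control. The translation elongation factor EEF2 (TRINITY_DN96_c0_g1) followed with 1, 4262 and 0. All of these had at least 4262 counts in low temperature and at most 4 elsewhere. Mlc1 (TRINITY_DN39_c0_g1), named after a myosin light chain, had 3, 4055 and 0 counts in low salinity, low temperature and control. The actin gene TRINITY_DN31_c0_g1 had 4, 12689 and 4, at a distance of 1.82.

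By summed low-temperature counts, which are not per length, vitellogenin ranked 26 among the 17909 assembled genes with a count there. Among the 4524 annotated genes it was the third. Just above it stood the larval serum and hemocyanin gene TRINITY_DN12_c0_g1, of the oxygen-carrying and storage proteins of hemolymph, with 10 counts in low salinity, 42385 in low temperature and 13 in control. Above that was the reverse transcriptase gene TRINITY_DN4_c0_g1, with 307101, 85223 and 398227 counts in low salinity, low temperature and control, which was highest in control. The actin and myosin heavy chain genes above were the next below vitellogenin.

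**Figure D3:**
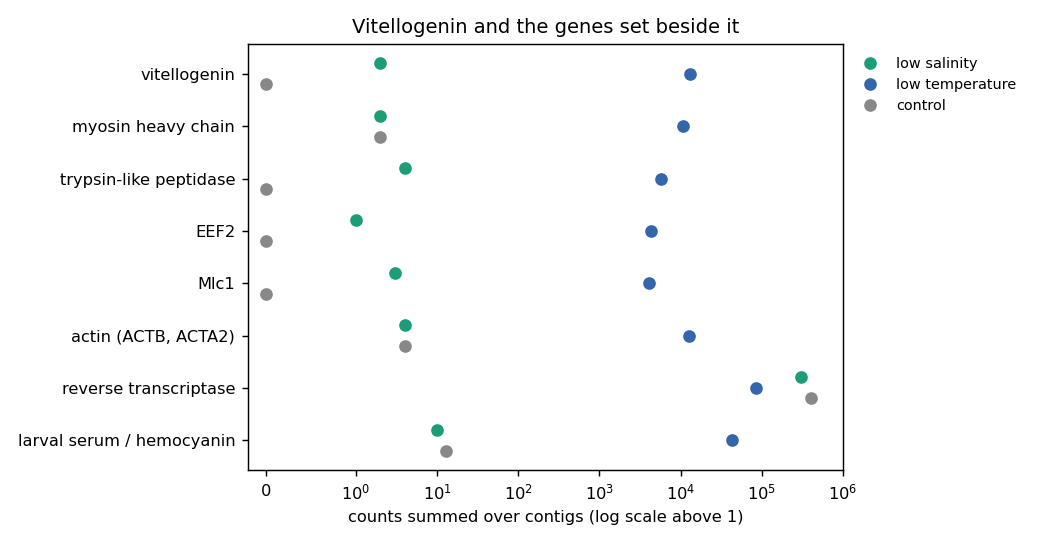
Counts summed over contigs (horizontal axis, logarithmic above 1 count) in the 3 libraries for vitellogenin, the 5 named genes nearest to it in pattern and the 2 annotated genes above it in low-temperature counts. Except for the reverse transcriptase gene, each has at least 4055 counts in low temperature and at most 13 in low salinity or control.

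Because most cellular transcripts were near 0 in low salinity and control, vitellogenin was also set against such transcripts within each library, a comparison chosen after the data were seen. Of the counts of vitellogenin and 150 ribosomal protein contigs together, vitellogenin held 2 of 20 in low salinity (10.0%, exact binomial 95% interval 1.23% to 31.7%), 13103 of 31868 in low temperature (41.1%, 40.6% to 41.7%) and 0 of 14 in control (0% to 23.2%, where 3 counts would be 21.4%). The low-salinity and control intervals lay below the low-temperature share. With the upper end of the control interval, the ratio of vitellogenin to ribosomal proteins was at least 2.32-fold higher in low temperature than in control. The bound of 12986-fold for TMM-scaled levels was computed differently, against a floor of 3 counts.

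Against hemocyanin and larval serum proteins the intervals overlapped. Vitellogenin held 2 of 12 counts in low salinity (16.7%, 2.09% to 48.4%), 13103 of 64502 in low temperature (20.3%, 20.0% to 20.6%) and 0 of 14 in control (0% to 23.2%). A difference relative to these hemolymph proteins was not detectable at this depth. With the upper end of the control interval, the lower limit of the ratio of low temperature to control was 0.846, below 1, so its direction is undetermined. At the low-temperature ratio of vitellogenin to these proteins, 2.55 counts would stand in low salinity and 3.57 in control.

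**Figure D4:**
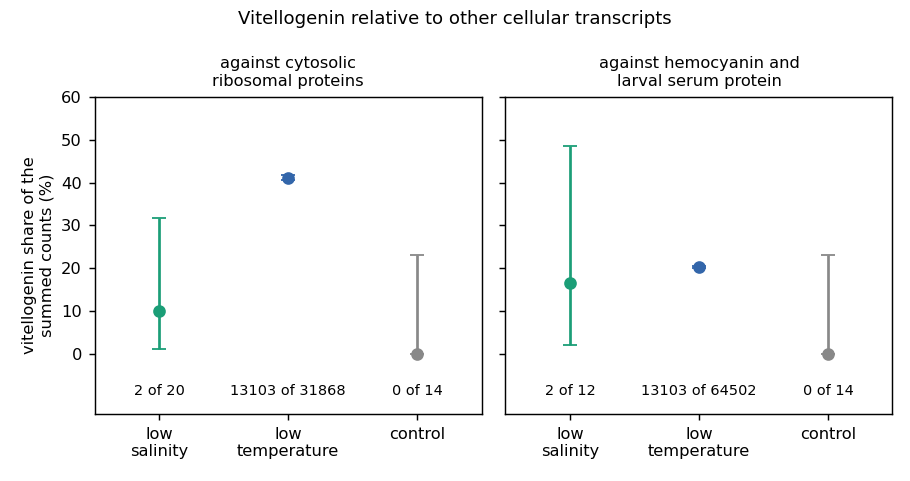
Share of vitellogenin in the summed counts of vitellogenin and ribosomal proteins (left) or hemocyanin and larval serum proteins (right), in percent, with exact binomial 95% intervals and the counts printed below. On the left the low-temperature share of 41.1% lies above both other intervals, and on the right the share of 20.3% lies within them.

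Other genes of yolk formation were few and had the same direction. The list of yolk and large lipid transfer proteins had 11 contigs, all tested, and beside the 7 vitellogenin contigs it held 4. Relative to control, all 11 were higher in low temperature by 2-fold or more and 0 lower, against 49.6% and 43.0% of all tested transcripts. Each of them passed the filter through low temperature only, which fixed its direction. The same holds for the tested contigs of the lists below, except for 2 fish marker contigs. The 11 contigs summed to 3 counts in low salinity, 13676 in low temperature and 0 in control. Of those 4, the most abundant by counts was TRINITY_DN20071_c0_g1_i7, described as a lipid transporter, with 1, 324 and 0 counts in low salinity, low temperature and control. TRINITY_DN21404_c0_g1_i1, another lipid transporter by description, had 0, 75 and 0. MTTP (TRINITY_DN32954_c0_g1_i1), the microsomal triglyceride transfer protein, a relative of vitellogenin that loads lipid onto secreted lipoproteins, had 0, 65 and 0. Over all 11 contigs the median log2 ratio was 10.24, or 8.36 with values under 3 counts set to 3, beside 0.83 and 0.89 over all tested transcripts. Since 7 of the 11 are vitellogenin contigs, this median describes mainly vitellogenin. The 4 others lay from 64.4-fold to 321-fold above a floor of 3 counts in control.

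Receptors and coats for yolk uptake were thinly covered. The contig named Vgr (TRINITY_DN29763_c0_g1_i1), described as a low-density lipoprotein receptor and named after the vitellogenin receptor, had 6 counts in low temperature, 0 in low salinity and 0 in control, too few to enter the tested set. It is named here after its value was seen. LRP2, an endocytic receptor of the same family, had 130 counts over 2 contigs in low temperature and 0 in both low salinity and control. CLTC (TRINITY_DN6371_c0_g1_i9), the clathrin heavy chain that coats endocytic vesicles, had 0, 132 and 0 counts in low salinity, low temperature and control. Of 20 contigs in this list 11 were tested, and all 11 were higher in low temperature than in control, against 49.6% of all tested transcripts. Their median log2 ratio was 7.62, or 6.24 with values under 3 counts set to 3. All 20 contigs summed to 0, 920 and 4 counts in low salinity, low temperature and control. The 11 tested contigs were not all of uptake genes. They included the coatomer subunits of Golgi vesicles COPG1 (TRINITY_DN21921_c0_g1_i1, with 0, 116 and 1) and COPA (TRINITY_DN3883_c0_g1_i4, with 0, 96 and 0). The coatomer subunits COPB1 (TRINITY_DN53379_c0_g1_i1, with 0, 75 and 0) and ARCN1 (TRINITY_DN33540_c0_g1_i1, with 0, 35 and 1) were among them too. So was AP3D1 (TRINITY_DN55501_c0_g1_i1, with 0, 32 and 0), described as not clathrin-associated. The text search took these in through the word clathrin.

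Enzymes that process secreted proteins had 10 of 15 contigs tested, all 10 higher in low temperature than in control, against 49.6% of all tested transcripts, with a median log2 ratio of 7.38 (5.49 at the floor). All 15 contigs summed to 4 counts in low salinity, 928 in low temperature and 2 in control. The proprotein convertase bli-4 (TRINITY_DN614_c0_g1_i1), of the furin-like family that cleaves vitellogenin in many insects, had 0, 306 and 1 counts. PDIA6 (TRINITY_DN658_c0_g1_i1), a disulfide isomerase of the secretory pathway, had 1, 131 and 0. SPCS2 (TRINITY_DN7424_c0_g1_i3), a subunit of the signal peptidase, had 0, 83 and 0. Each of these had its counts almost wholly in low temperature.

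The hormone list had 3 of 10 contigs tested and all 3 higher in low temperature than in control, against 49.6% of all tested transcripts, with a median log2 ratio of 8.06 (6.18 at the floor). The list had 414 counts in low temperature and 0 in both low salinity and control. TRINITY_DN364_c0_g1_i4, described as a farnesoic acid methyltransferase, the enzyme type that in crustaceans makes the hormone methyl farnesoate, had 223 counts in low temperature. TRINITY_DN7796_c0_g1_i1, described as an ecdysteroid kinase, an enzyme that in insects turns moulting hormones into a storage form, had 73, and IGFBP7 (TRINITY_DN14587_c0_g1_i1), an insulin-like growth factor-binding protein, had 33.

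The egg and sperm lists, filled by text search, both had counts in low temperature, and a text match alone does not make a contig a marker of either tissue. The egg coat and oogenesis list had 2 of 8 contigs tested, both higher in low temperature than in control, against 49.6% of all tested transcripts, with a median log2 ratio of 8.73 (7.96 at the floor). The list summed to 0 counts in low salinity, 875 in low temperature and 3 in control. Most of these came from the peptidase ACE (TRINITY_DN492_c0_g1_i15, with 0, 714 and 0 counts, and TRINITY_DN492_c0_g1_i8, with 0, 16 and 0), which is specific to neither eggs nor sperm and also carried most of the sperm list's counts. The others included VMO1 (TRINITY_DN11120_c0_g1_i1), named after an outer layer protein of the vitelline membrane, with 0, 89 and 3. The testis and sperm list had 6 of 9 tested, all 6 higher, against 49.6% of all tested transcripts, with a median log2 ratio of 7.02 (5.13 at the floor). It summed to 0, 974 and 0 counts in low salinity, low temperature and control, and ODF3L2 (TRINITY_DN1468_c0_g1_i4), a sperm-tail protein, had 0, 69 and 0. PRKCI (TRINITY_DN10345_c0_g1_i1), a kinase of cell polarity that also entered the sperm list by its text, had 0, 38 and 0. The spermidine synthase SMS (TRINITY_DN42252_c0_g1_i1), taken in likewise, had 0, 31 and 0. The part of either tissue in the vitellogenin counts was not tested.

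Storage proteins had all 22 contigs tested and all 22 higher in low temperature than in control, against 49.6% of all tested transcripts, with a median log2 ratio of 10.96 (9.55 at the floor). They summed to 10, 51488 and 14 counts in low salinity, low temperature and control. The larval serum protein contig TRINITY_DN12_c0_g1_i14 led with 7, 20734 and 0, followed by TRINITY_DN12_c0_g1_i15 with 0, 7039 and 0 and TRINITY_DN34_c0_g1_i4, of the same description, with 0, 4565 and 0. The fish marker list had 21 of 23 tested contigs higher and 2 lower, against 49.6% and 43.0% of all tested transcripts, with a median log2 ratio of 7.73 (5.85 at the floor). It was led by sls (TRINITY_DN628_c0_g1_i3), a giant muscle protein in Drosophila, with 0, 369 and 0 counts, and TRINITY_DN312_c0_g1_i1, described by an immunoglobulin domain, with 0, 261 and 0, while the immunoglobulin-like TRINITY_DN69_c1_g1_i2 had 36, 0 and 127 counts in low salinity, low temperature and control. Apart from the 2 lower fish marker contigs, each tested contig of every list passed the filter only through its low-temperature counts. The numbers of higher contigs thus describe the low-temperature library and add no support to a difference.

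**Figure D5:**
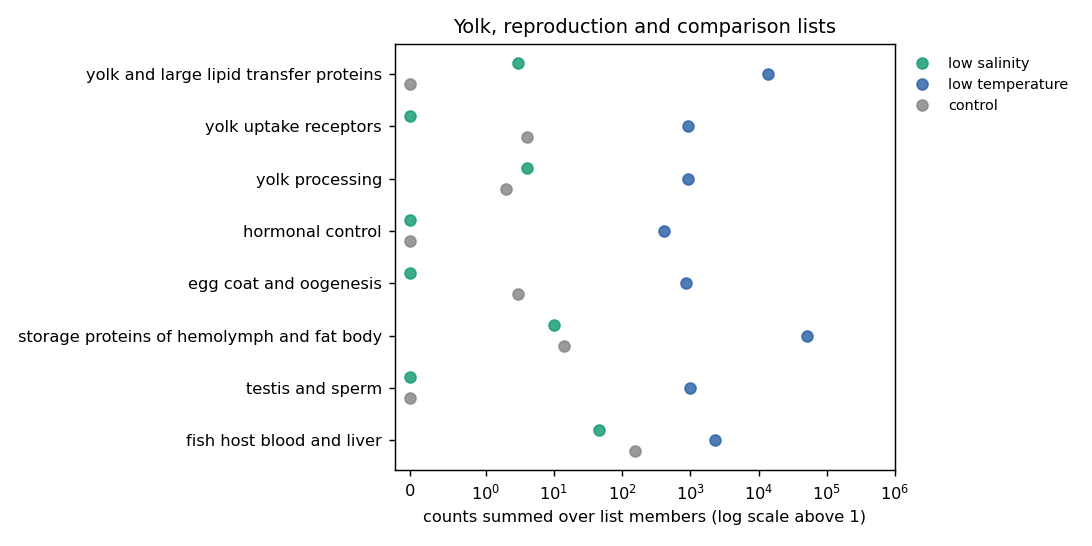
Counts summed over the members of each list (horizontal axis, logarithmic above 1 count) in low salinity, low temperature and control. In all 8 lists the low-temperature sum is the highest, from 414 to 51488 counts, and the vitellogenin contigs supply 13103 of the 13676 in the first list.

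In the authors' deposited tables vitellogenin was represented by contig i1 alone. The authors' deposited table of normalized values gave it 2.55 in low salinity, 32388 in low temperature and 0 in control. Contig i1 was listed 3 times, and these values equal its counts times 3 times the library factor. With 1 listing they would be 0.850, 10796 and 0. The tripled contig, 13014 counts in low temperature, came close to the 13103 of the whole gene. Of the 26084 genes in that table, 439 had a contig listed more than once and 35 had 3 or more listings.

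In the authors' deposited table for low temperature against control, vitellogenin had the highest log2 fold change of all 26067 genes with a value, 17.46 with a deposited standard error of 1.44. The next was the unannotated TRINITY_DN7589_c0_g1_i1 at 17.18, with 1 listing and 10771 low-temperature counts. Among the 12285 genes at 0 in control, vitellogenin was first by the authors' deposited low-temperature value, and with 1 listing it would be the second, after that contig. In the authors' deposited table for low salinity against control, the single low-salinity count of i1 stood as a log2 fold change of 4.02 with a standard error of 1.56. For low salinity against low temperature the authors' deposited table gave -13.44. These deposited standard errors come from 1 library per condition, and their p-values are not reported here.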

How the data were processed

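RNA from whole animals was sequenced on the Ion Torrent S5 platform after RNase III fragmentation and 18 PCR cycles, per the labels' protocols. The submitters' processing notes name Salmon 1.10.2, fastp 0.23.2 and FastQC 0.11.9. Not given in the sources used here are the software for assembly and annotation and a genome build, and no sequence of a contig was used. The authors deposited estimated counts per contig, which are whole numbers in the file. They also deposited a normalized signal per gene, equal to counts times listings times 1 factor per library (tolerance 0.01). The deposited comparison tables hold p-values, a baseMean score, a test statistic score and log2 fold changes with standard errors, per the file headers.

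Each contig listed more than once (33093 rows) was used once. Counts were summed over the contigs of an assembled gene, taken as the name before the final contig number. CPM used TMM factors from edgeR 4.0.16 (R 4.3.3) over all contigs. They were 1.29 for low salinity, 0.449 for low temperature and 1.73 for control, and the tested set had a mean count of at least 10. With 1 library per group no test was run. A difference was counted from an absolute log2 ratio of 1 upwards, with a prior count of 0.5. Intervals are exact at 95% (Python 3.11.15, scipy 1.17.1). Reads amplified by PCR carry no molecular identifiers and may repeat 1 molecule, so intervals and floors cover counting error only. The ratio and its interval were tested on simulated data at folds far smaller than those of vitellogenin. That test does not cover ratios that rest on a few counts.

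The members and the 8 lists, by text in names and descriptions, were chosen with earlier results of these data known. All members, the 3 most abundant contigs of each list by counts, the 5 nearest named genes and the 2 annotated genes above and below in low-temperature counts are named, with a few others. The library scaling, the prior count, the filter, the handling of repeated rows and the use of 1 contig were varied.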

Additional observations from a re-analysis of the deposited data

How the results depend on the processing

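Scaling moved all log2 ratios of a comparison together. Against TMM, the ratio of low temperature to control shifted by -1.95 with total counts, -2.47 with upper-quartile scaling, 0.96 with median-of-ratios (DESeq2 1.42.0) and -0.28 with TMM over assembled genes. The vitellogenin bound of 13.66 (log2) thus became 11.72, 11.20, 14.62 and 13.38. It was 14.65 with every listed row counted, 12.07 with contig i1 alone and 14.61 with the authors' normalized value. From the upper end of the control interval, the lower limit of the log2 value relative to ribosomal proteins was 1.21. The lower limit relative to hemocyanin and larval serum proteins was -0.24, which leaves the direction undetermined. Both comparisons were chosen after the data were seen. For low salinity against low temperature, -13.24 became -10.56 with upper-quartile scaling and stayed within its counting interval otherwise. Within the libraries, vitellogenin per ribosomal protein count was 0.111 in low salinity (0.0125 to 0.464) and 0.698 in low temperature. Per count of hemocyanin and larval serum protein it was 0.2 (0.0213 to 0.939) and 0.255, which leaves the direction undetermined. All 7 contigs stayed at least 2-fold higher in low temperature than in control under every scaling, prior count and row handling tried. Since each contig passed the filter through low temperature only, none of these settings could change that direction. The low salinity minus control difference of 1.08 CPM stayed within 0.131 to 3.92, the counting interval of the low-salinity level alone, which leaves out the error of control.

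The number of transcripts past 2-fold changed most with the filter. For low salinity against control, 481 higher and 1139 lower became 3073 and 6743 with no filter and 132 and 329 at a mean count of at least 50. A prior count of 2 gave 305 higher, and total counts gave 1742 lower. Of those past the rule 29.7% were higher, which became 16.1% with total counts and 42.0% with upper-quartile scaling. For low temperature against control, 4244 higher and 3678 lower became 16628 and 12501 with no filter and 913 and 1279 at 50. For low salinity against low temperature, 3577 and 4273 became 10372 and 16887 with no filter and 1279 and 922 at 50.

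List members higher in low temperature than in control went to 20 (uptake), 10 (hormones), 8 (egg) and 43 (fish markers) with no filter. At a mean count of at least 50 they were 0 (uptake), 1 (processing), 1 (hormones), 1 (egg), 1 (sperm) and 3 (fish markers), since fewer contigs were tested. A change of the prior count has no bearing on a bound, no vitellogenin-described contig outside the gene existed to vary, and the authors' normalized values have no CPM for low salinity against control. No paired analysis was possible because each condition has 1 library. Depth limits low salinity and control, where a value of 0 was read against a floor of 3 counts.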

Other observations

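A second assembled gene shares the cluster part of its name with vitellogenin, and it has no annotation. TRINITY_DN9_c0_g2_i1 had 0 counts in low salinity, 2475 in low temperature and 1 in control, a TMM-scaled ratio of low temperature to control of 7359 (exact conditional binomial 95% interval 1320 to 290779). No sequence of it was used, so whether it belongs to the vitellogenin transcript was not tested. LPL, named after a lipoprotein lipase, which releases fatty acids from circulating lipoproteins, had 602 counts over 3 contigs in low temperature and 0 in both low salinity and control. LRPAP1, a chaperone of lipoprotein receptors, had 46 counts in low temperature and 0 in both others. These genes were named after their values were seen.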
